A study of Mus musculus with 6 samples.

Results

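Kallikreins and trypsin-like serine proteases are enzymes that cut other proteins with a reactive serine, mostly next to arginine or lysine. The genes described here were chosen by name, as every probe whose gene symbol begins with Klk, Prss or Tmprss, which gave 93 probes of 60 genes among 45281 probes and 30789 symbols. The family was put forward with its difference between the days already known, so the day differences of its members are a description and support nothing beyond themselves. It held 26 genes with a kallikrein symbol (44 probes), 19 Prss genes (29 probes) and 15 Tmprss genes (20 probes). RNA came from the uterus of pregnant mice, 3 arrays at day 15.5 after mating and 3 at day 18.5, close to term, hybridised in 1 colour to the 6 positions of an Illumina bead chip. Neither strain nor genotype is given in the sources used here, and no treatment is named for either day. The labels give uterus as the tissue, while in the design text it is myometrium, the muscle layer. That text also counts 18 biological replicates a day where there are 3 arrays. Whether an array stands for 1 animal or a pool is not given, so p-values cover only the spread from array to array, part of which may be technical.

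Tissue kallikreins are secreted, and the best known, KLK1, frees the vasoactive kinin peptides from kininogen. Most Tmprss enzymes, and prostasin, encoded by Prss8, are anchored in the membrane of epithelial cells, where they cut growth factors, other proteases and subunits of the epithelial sodium channel. The products of Prss28 and Prss29 are the implantation serine proteinases, made by uterine glands of the mouse around implantation. Rodents carry a run of duplicated kallikrein genes, the Klk1b copies, which are near-identical in sequence. A Klk1b probe may therefore read the transcripts of other copies. The probe sequences were not used here, and this cross-reading was not tested.

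The copies resemble each other in front of the gene as well, and 3 kallikrein promoters show how far. RefSeq (assembly GRCm38.p6) gave windows from 250 bases before to 50 bases after the start site for 50 of the genes, 20 of them among the genes measured below. In capitals are the letters TATAAA, the core of a TATA box, and CACCTG, read on either strand (as CAGGTG where it lies on the other one). CACCTG is an E-box that the repressors ZEB1 and ZEB2, named in the study's title, are known to bind. Klk15 and Klk1b11 had lower signals at day 18.5, and Klk1b16 was detected on no array.

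Klk15, chr7:43931425-43931724, strand +: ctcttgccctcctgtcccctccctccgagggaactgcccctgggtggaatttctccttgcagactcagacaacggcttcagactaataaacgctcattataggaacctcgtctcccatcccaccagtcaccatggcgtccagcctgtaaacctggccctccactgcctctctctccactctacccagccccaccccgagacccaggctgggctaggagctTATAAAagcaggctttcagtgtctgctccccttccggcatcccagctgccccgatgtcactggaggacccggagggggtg
Klk1b11, chr7:43995627-43995926, strand +: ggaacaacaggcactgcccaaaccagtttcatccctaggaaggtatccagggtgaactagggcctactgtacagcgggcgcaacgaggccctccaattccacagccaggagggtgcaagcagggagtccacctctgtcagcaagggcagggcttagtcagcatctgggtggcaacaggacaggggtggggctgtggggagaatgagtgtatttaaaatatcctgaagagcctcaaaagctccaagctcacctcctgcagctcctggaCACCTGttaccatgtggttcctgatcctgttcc
Klk1b16, chr7:44137040-44137339, strand +: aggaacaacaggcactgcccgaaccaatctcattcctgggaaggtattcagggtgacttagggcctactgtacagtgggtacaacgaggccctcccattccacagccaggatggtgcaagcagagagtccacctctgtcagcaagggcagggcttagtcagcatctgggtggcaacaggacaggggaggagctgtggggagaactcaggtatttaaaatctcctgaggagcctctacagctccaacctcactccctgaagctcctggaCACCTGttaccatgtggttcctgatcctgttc

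Klk1b11 and Klk1b16 were identical in 90.4% of the columns of their aligned windows, although probes for the former were detected and those for the latter were not. Over the 66 pairs of Klk1b copies identity ran from 59.2% to 90.4%, with a median of 79.2%. Windows were aligned end to end from each gene's annotated start site, so a pair whose annotated starts differ scores low even where it shares sequence.

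A second set shows Prss28 and Prss29 of chromosome 17, whose signals were lower at day 18.5, and Prss32 of the same chromosome, whose signal was higher.

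Prss28, chr17:25308396-25308695, strand +: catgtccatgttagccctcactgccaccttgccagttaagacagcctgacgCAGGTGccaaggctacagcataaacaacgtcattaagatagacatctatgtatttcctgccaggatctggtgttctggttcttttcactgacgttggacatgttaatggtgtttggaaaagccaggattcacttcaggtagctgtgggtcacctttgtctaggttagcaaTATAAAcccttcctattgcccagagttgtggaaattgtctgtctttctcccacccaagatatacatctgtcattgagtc
Prss29, chr17:25318404-25318703, strand +: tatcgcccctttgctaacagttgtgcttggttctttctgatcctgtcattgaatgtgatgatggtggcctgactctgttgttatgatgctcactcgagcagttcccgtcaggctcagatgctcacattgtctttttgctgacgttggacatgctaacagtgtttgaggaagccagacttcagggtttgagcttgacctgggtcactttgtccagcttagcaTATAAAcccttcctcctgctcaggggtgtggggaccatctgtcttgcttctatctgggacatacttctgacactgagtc
Prss32, chr17:23853522-23853821, strand +: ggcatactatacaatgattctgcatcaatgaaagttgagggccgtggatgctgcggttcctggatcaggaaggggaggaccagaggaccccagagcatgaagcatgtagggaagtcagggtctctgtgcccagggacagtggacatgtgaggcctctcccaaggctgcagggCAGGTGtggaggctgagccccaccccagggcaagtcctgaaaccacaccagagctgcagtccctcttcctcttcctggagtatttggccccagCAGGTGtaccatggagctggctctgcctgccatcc

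The windows of the neighbours Prss28 and Prss29 were identical in 64.0% of aligned columns, and in both TATAAA began at position -29 from the start site. In Klk15 it began at position -30. The letters TATAAA were present in 6 of the 50 windows (3 of the 20 of measured genes), against 13.6% of all 32851 windows. CACCTG was present in 28 of 50 (13 of 20), against 20.2% of all windows. Of these, 11 belonged to the 12 Klk1b copies, which share sequence, and 17 to the 38 other genes. In most of the Klk1b copies a CACCTG began after the start site, at positions 11 to 41. Klk1b4, Klk1b8 and Klk1b22 also held one in front of it, and Klk1b5 held one only in front. A full oestrogen response element (AGGTCA and TGACC with 3 bases between them) and a full progesterone and glucocorticoid response element (GNACA and TGTNC, likewise spaced) were found in none of the 50 windows, against 0.0548% and 0.475% of all windows. TGTTCT, which makes up 1 side of the latter element, was present in 9 of 50 and in 19.0% of all windows. Such matches are letters in a window and show no binding.

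Many probes of the family gave no detected signal in this tissue, as did many probes of the chip. Of the 93 probes, 50 were detected on no array, detection meaning a detection p under 0.05 as deposited. A probe was tested when it was detected on at least 3 of the 6 arrays, which left 39 probes of 25 genes, and 54 probes and 35 genes were not tested. By the same rule 20701 of all 45281 probes were tested. How many of all probes were detected on no array was not counted. Each member probe was read from 15 to 67 beads per array. On each array 43.6% to 46.5% of all probes were detected, with a median signal before normalization of 75.8 to 104.7. Each day filled its own stretch of the chip, so day and position cannot be told apart. In bulk tissue, fewer cells of a type and less RNA per cell cannot be told apart.

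The kallikreins without a tested probe were Klk5, Klk6, Klk7, Klk9, Klk10, Klk11, Klk12, Klk13, Klk14, Klk1b9, Klk1b16, Klk1b22 and the plasma kallikrein gene Klkb1. The Prss genes without one were Prss2, Prss3, Prss7, Prss16, Prss18, Prss21, Prss27, Prss33, Prss34, Prss35, Prss36 and Prssl1. The Tmprss genes without one were Tmprss3, Tmprss5, Tmprss7, Tmprss8, Tmprss9, Tmprss11b, Tmprss11c, Tmprss11d, Tmprss11e and Tmprss11f. RefSeq now lists 4 of these under other names, Prss7 as Tmprss15, Tmprss8 as Prss30, Prssl1 as Prss57 and Prss18 as Klk6. Klk1b9, Prss16, Prss3 and Tmprss11c each had a probe detected on 1 or 2 arrays.

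Klk1, Klk4, Klk15, several Klk1b copies, the implantation proteinase genes and Tmprss4 were lower at day 18.5, while Prss22 and Prss32 were detected only there. Of the 19 tested kallikrein probes 10 were lower, 1 was higher and 8 did not pass. Of the 39 probes, 16 were lower at day 18.5 (12 genes), 3 were higher (3 genes) and 20 did not pass, by limma with Benjamini-Hochberg adjustment over all 20701 probes tested. Over all probes 13.2% were lower and 11.6% higher, and nothing is read from the family's counts because its difference was known when it was chosen. The values of the days did not overlap for 20 of the 39 probes on the lower side and 3 on the higher side, against 20.8% and 20.9% of all probes. The median log2 change of the 39 probes, day 18.5 minus day 15.5, was -0.35, and that of all probes was 0.01. With median scaling in place of quantile normalization the median of all probes moved to -0.11 and the family's to -0.51. The share of higher calls among all calls was then 29.4% in place of 46.8%, and 2 member probes were higher and 20 lower.

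Klk15, whose human counterpart is known to activate prostate-specific antigen, had the largest decrease among the kallikreins. Its log2 signal was 8.32, 8.39 and 8.57 on the day 15.5 arrays and 5.92, 6.14 and 6.58 on those of day 18.5. All 3 early arrays lay well above the late ones. The log2 change was -2.22 ± 0.18 (SE, n = 3 a day), a 4.65-fold decrease (adjusted p = 3.07e-05). The late values lay near the level of the weakest detected probes, a log2 signal of 5.44, and without background correction the log2 change was -1.60. Klk4, known for removing enamel matrix proteins in the developing tooth, was at 9.69, 10.50 and 10.24 and then at 8.84, 8.28 and 8.62. The days did not overlap, and the decrease was 2.96-fold (log2 change -1.57 ± 0.22, adjusted p = 0.000815). Klk8, or neuropsin, known from skin and hippocampus, was at 7.23, 7.35 and 7.34 and at 7.29, 7.32 and 7.25. The days overlapped throughout, and the log2 change of -0.02 ± 0.11 did not pass (adjusted p = 0.917). Klk4, Klk15 and Klk8 were the only genes from Klk4 to Klk15 with a tested probe, 3 of 16 probes for 12 genes.

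Klk1, the kinin-releasing tissue kallikrein, gave log2 signals of 13.91, 13.56 and 13.59 at day 15.5 and 13.20, 13.14 and 12.85 at day 18.5. Every early array lay above every late one, and the decrease was 1.54-fold (log2 change -0.63 ± 0.15, adjusted p = 0.0137). Of the 12 Klk1b genes, 9 had tested probes, 15 in all, of which 7 were lower, 1 was higher and 7 did not pass. Klk1b11 carried the largest decrease among them, at both of its probes. Probe ILMN_2979432 was at 8.54, 8.97 and 9.06 and then at 7.36, 6.90 and 7.0, a 3.41-fold decrease (log2 change -1.77 ± 0.18, adjusted p = 0.000117). Probe ILMN_2632912 was at 6.25, 7.17 and 6.80 and then at 5.44, 4.86 and 5.04, where it was detected on no array. It was at least 2.48-fold lower (adjusted p = 0.000971), a bound that sets the day 15.5 mean against the lowest signal of any detected probe on each late array, and its log2 change was -2.21 to -0.91 over the alternatives.

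A single probe each of Klk1b4, Klk1b5, Klk1b26 and Klk1b27 (ILMN_1252131) followed Klk1 closely in level and change. The other probes of Klk1b4, Klk1b5 and Klk1b26 were detected on no array, with day means of 4.61 to 5.11 (log2). Whether the bright probes read these genes or other copies was not tested. Klk1b4, known as the alpha subunit of the nerve growth factor complex of the mouse salivary gland, was at 13.18, 12.71 and 12.90 and then at 12.18, 12.35 and 12.09 (log2 change -0.72 ± 0.15, adjusted p = 0.0068). Klk1b5 was at 13.42, 13.12 and 13.06 and then at 12.50, 12.40 and 12.28 (-0.81 ± 0.14, adjusted p = 0.00247). At each of these 4 probes, and at that of Klk1, the array of replicate 1 was the highest of day 15.5 and no late array reached the early ones. How many of all probes had that array highest was not counted. The probes may read the same transcripts, so their shared order is not a set of separate observations. Klk1b26 was at 13.30, 13.06 and 12.92 and then at 12.42, 12.51 and 12.30 (-0.68 ± 0.14, adjusted p = 0.00586). The Klk1b27 probe was at 13.55, 13.20 and 13.28 and then at 12.57, 12.54 and 12.56 (-0.78 ± 0.13, adjusted p = 0.00204). Klk1b8 was at 7.35, 7.01 and 6.92 and then at 6.12, 6.52 and 6.05, a 1.82-fold decrease (log2 change -0.87 ± 0.17, adjusted p = 0.00507). The decreases at these 5 Klk1b probes, 1.61-fold to 1.82-fold, were of much the same size as that of Klk1.

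Klk1b27 had a second probe (ILMN_3009447) that went the other way. It was at 8.56, 8.29 and 8.31 at day 15.5 and at 8.74, 9.31 and 8.87 at day 18.5. The days did not overlap, and the log2 change was 0.58 ± 0.17 (adjusted p = 0.0311), so the direction of Klk1b27 itself was not settled by these probes. This call was kept under 7 of 14 alternatives. It was lost without replicate 2 or 3 of day 15.5 (adjusted p = 0.095 and 0.0933), without replicate 2 or 3 of day 18.5 (0.109 and 0.0521), with median scaling (0.0873), without a detection filter (0.0728) and with a replicate block (0.0537), within a range of 0.0121 to 0.109.

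Other copies did not pass. All 3 probes of Klk1b21 lay between 0.19 and 0.51 (log2 change; adjusted p = 0.185 to 0.514). Both probes of Klk1b24 were at -0.19 and -0.32 (adjusted p = 0.484 and 0.176), of which the latter passed with median scaling (-0.48, adjusted p = 0.0472). The probes of Klk1b1 were near the limit of detection and their days overlapped, with log2 changes of 0.58 ± 0.34 and 0.22 ± 0.47. The second of these turned to -0.12 without replicate 2 of day 15.5 and to -0.25 without replicate 1 of day 18.5.

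**Figure D1:**
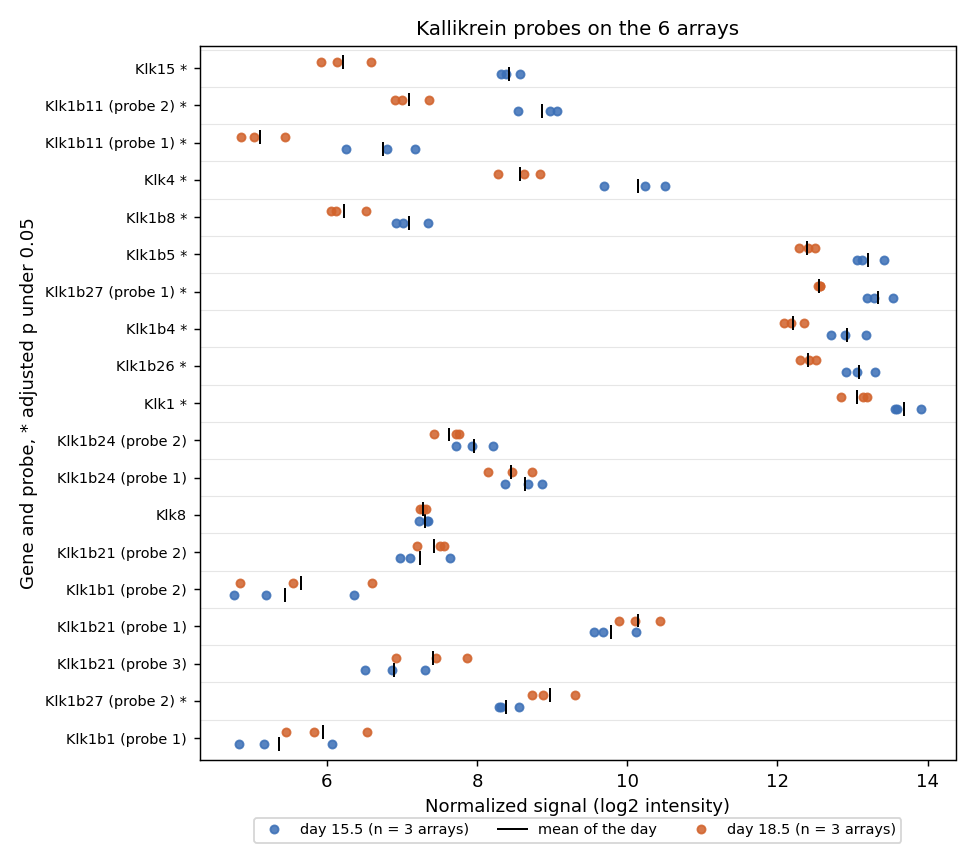
Normalized log2 signal (x axis) of the 19 kallikrein probes tested, each dot an array, with a bar at the mean of each day (n = 3 arrays) and genes and probes, numbered by probe identifier, ordered by log2 change on the y axis. The late arrays of Klk15, Klk1b11 and Klk4 lie far below the early ones, and the 2 Klk1b27 probes stand on opposite sides.

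The 26 protein-coding kallikrein genes of chromosome 7 are taken here in their RefSeq order (assembly GRCm38.p6), and 25 of them had a probe on the arrays, Klk1b3 being the exception. Reading along that order, Klk4, Klk15 and Klk1b8 follow each other and all 3 were lower at day 18.5. Klk1b4, Klk1b5 and Klk1 close the row at its far end, and all 3 were lower too. Between them stand Klk1b1, Klk1b21 and Klk1b24, which did not pass, Klk1b11 and Klk1b26 with lower probes, and Klk1b27 with 1 lower and 1 higher probe. Of the 10 genes from Klk14 to Klk5, only Klk8 had a tested probe. Neighbours that are near-identical copies may be read by the same probe, so runs of like values in the row are not separate measurements.

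**Figure D2:**
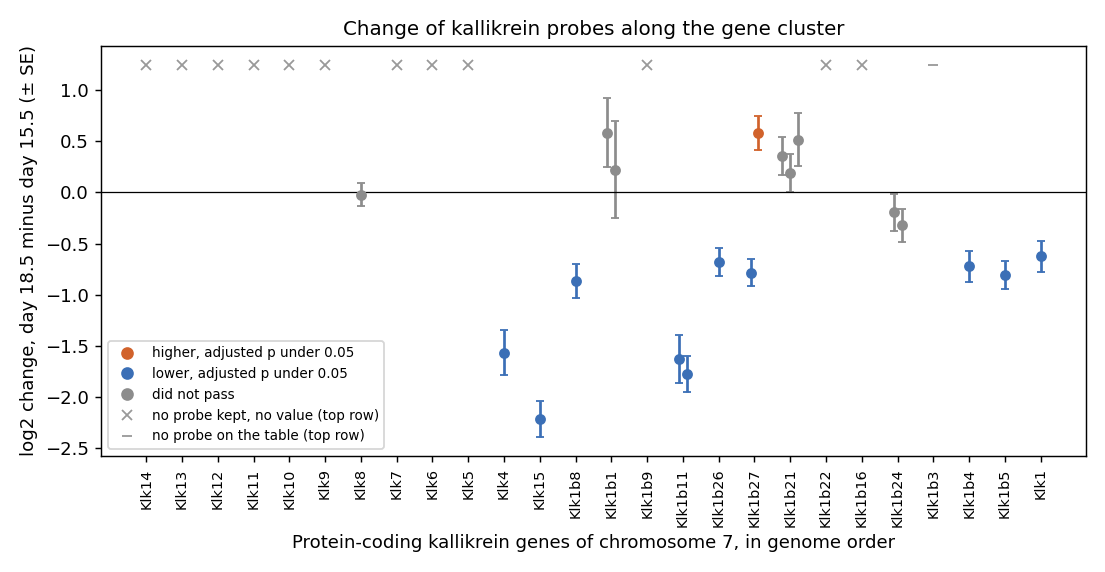
Log2 change from day 15.5 to day 18.5 (y axis, ± SE, n = 3 arrays a day) of each tested kallikrein probe, with the genes of chromosome 7 on the x axis in genome order; crosses in the top row mark genes without a tested probe and the dash a gene without a probe. Klk15 had the lowest value of the row, at -2.22, and the second Klk1b27 probe the one called higher, at 0.58.

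Prss28 and Prss29, the implantation proteinase genes, were both lower at day 18.5 and spread widely at day 15.5. Prss28 had log2 signals of 6.13, 7.12 and 8.24 at day 15.5, where all 3 arrays detected it, and of 4.81, 5.33 and 4.94 at day 18.5, where none did. It was at least 3.32-fold lower (adjusted p = 0.00583), with a log2 change of -2.74 to -1.30 over the alternatives. The first Prss29 probe was at 9.45, 9.98 and 10.85 and then at 8.47, 8.64 and 8.67, a 2.84-fold decrease (log2 change -1.51 ± 0.29, adjusted p = 0.00494). Its second probe was at 10.14, 10.42 and 11.44 and then at 9.09, 9.17 and 9.35, a 2.76-fold decrease (log2 change -1.47 ± 0.28, adjusted p = 0.00499). The days did not overlap for either Prss29 probe. Prss28 was tested only through its day 15.5 arrays, and its late values are background. Its adjusted p therefore does not measure the spread of expression at day 18.5. On each of the 3 probes of these genes replicate 3 was the highest array of day 15.5, which also held for 31.9% of all probes tested. Replicate 1 was the lowest on each, and the share of all probes with both traits was not counted. Prss28, Prss29 and Prss34 are direct neighbours on chromosome 17, and Prss34, a protease of basophils and mast cells in the mouse, had no tested probe.

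The membrane-anchored proteases were led by Tmprss4, known to activate the epithelial sodium channel when both are expressed together in cells. Its 3 probes fell alike. Probe ILMN_2428060 was at 13.14, 12.91 and 12.60 at day 15.5 and at 11.68, 11.82 and 11.84 at day 18.5, a 2.15-fold decrease (log2 change -1.10 ± 0.15, adjusted p = 0.000793). Probe ILMN_2428061 was at 13.38, 12.94 and 12.57 and then at 11.84, 11.96 and 12.21 (-0.96 ± 0.20, adjusted p = 0.00738). Probe ILMN_2459260 was at 9.62, 9.22 and 8.95 and then at 8.30, 7.90 and 8.17 (-1.14 ± 0.18, adjusted p = 0.00187). The lowest early array stood above the highest late array on all 3.

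Prss8, whose product prostasin processes the gamma subunit of the same channel, gave lower values that did not pass. Its first probe was at 10.47, 10.25 and 9.88 and then at 9.77, 9.85 and 9.65, with no overlap (log2 change -0.44 ± 0.16, adjusted p = 0.0753). It passed without background correction (adjusted p = 0.0381), with an offset of 50 (0.0444), with median scaling (0.0354), with a trended and robust variance (0.032) and without replicate 3 of day 15.5 (0.0231), within a range of 0.0231 to 0.201. Its second probe was at 10.52, 10.21 and 9.91 and then at 10.11, 9.74 and 9.99, and the days overlapped (-0.26 ± 0.17, adjusted p = 0.308).

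Tmprss13, a protease of skin and other barrier epithelia, showed 9.24, 9.06 and 8.59 followed by 8.39, 8.57 and 8.56 at one probe (log2 change -0.45 ± 0.17, adjusted p = 0.0867) and -0.49 ± 0.20 at the other (adjusted p = 0.104). Without replicate 3 of day 15.5 both passed (adjusted p = 0.0164 and 0.0198), as they did with median scaling (0.0336 and 0.0432), and the first also with a trended and robust variance (0.0475). Tmprss2, known for activating respiratory viruses at the cell surface, was at 11.59, 11.45 and 10.99 and then at 11.58, 11.81 and 11.89, so that the days overlapped by a single array (0.41 ± 0.17, adjusted p = 0.116).

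Within day 15.5, 8 of the 11 tested probes of Tmprss genes and Prss8 were highest on replicate 1 and lowest on replicate 3, an order noticed in the data that 15.6% of all probes tested showed. The 8 were all probes of Tmprss2, Tmprss4, Tmprss13 and Prss8, and the 3 others belonged to Tmprss6 and Tmprss11a. The summed signal of the markers of uterine epithelium, such as Krt8, Krt18 and Krt19, stood in the same order, at 29212, 18870 and 17338. At day 18.5 that sum was 67840 to 73098. Ltf, picked out after its values were seen, was the brightest marker on every array and weighed most in the sums. It was at 13.51, 12.41 and 12.52 and then at 15.06, 15.09 and 15.07 (log2). At day 15.5 neither Ltf nor Krt19 (10.51, 9.62 and 9.85) stood in the order of the sum. All 8 tested markers of the list rose, 8 of 12 listed, while Epcam and Foxa2 were detected on no array. The call of Krt18 (adjusted p = 0.0489) held under 6 of 15 alternatives and ended when replicate 2 or 3 of day 15.5 or any late array was removed (adjusted p between 0.0907 and 0.144, within a range of 0.014 to 0.144). The gland marker Cxcl15, not tested, was detected on 2 arrays of day 15.5 and none of day 18.5. Tmprss4 was lower at day 18.5, and the 8 tested epithelial markers were higher. The part of the epithelial share in these results was not tested.

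Tmprss6, which restrains the iron hormone hepcidin by cutting hemojuvelin in the liver, did not pass at either probe, with log2 changes of -0.02 ± 0.17 and -0.25 ± 0.16 (adjusted p = 0.958 and 0.31). Tmprss11a, a protease of squamous epithelia, changed by 0.04 ± 0.19 (adjusted p = 0.901), and its sign turned with median scaling (-0.13).

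Prss22 and Prss32, of the tryptase-related genes on chromosome 17, were detected only at day 18.5. Prss22, whose human product can activate the plasminogen activator urokinase, was at 4.75, 4.80 and 4.76 on the day 15.5 arrays, none of which detected it, and at 7.64, 7.38 and 7.82 on those of day 18.5. The increase was at least 4.47-fold (adjusted p = 3.88e-06), with a log2 change of 1.76 to 3.47 over the alternatives. Prss32 was at 4.56, 4.58 and 4.57, again detected on none, and then at 6.70, 6.75 and 6.25. The increase was at least 2.16-fold (adjusted p = 2.36e-05), with a log2 change of 1.16 to 2.27 over the alternatives. In both genes the late arrays stood far from the early ones, and the 3 early values, at the background level, have no order. Both probes met the detection limit only through the day 18.5 arrays. Their adjusted p rests on background values at day 15.5 and does not measure the spread of expression on that day. On chromosome 17 Prss22 stands between Prss30 and Prss27, and Prss32 between Prss41 and Prss21, and of these neighbours Prss30, Prss27 and Prss21 had no tested probe and Prss41 no probe.

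Prss12 and Prss23 did not pass at any probe. Prss12 encodes neurotrypsin, which cuts agrin at synapses, and gave 10.23, 9.79 and 9.84 and then 9.58, 9.58 and 9.75 at one probe (log2 change -0.32 ± 0.15, adjusted p = 0.154) and -0.35 ± 0.20 at the other (adjusted p = 0.225). The days did not overlap at either probe of Prss12. The probes of Prss23, a secreted protease of the ovary and other tissues, disagreed in spread. One was at 9.25, 9.55 and 9.41 and then at 9.68, 9.44 and 9.43, with a log2 change of 0.12 ± 0.13 that turned to -0.01 with median scaling. The other was at 8.05, 5.03 and 7.37 and then at 6.06, 5.96 and 7.81, with a change of -0.21 ± 0.73 that turned positive when any of 4 arrays was left out.

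**Figure D3:**
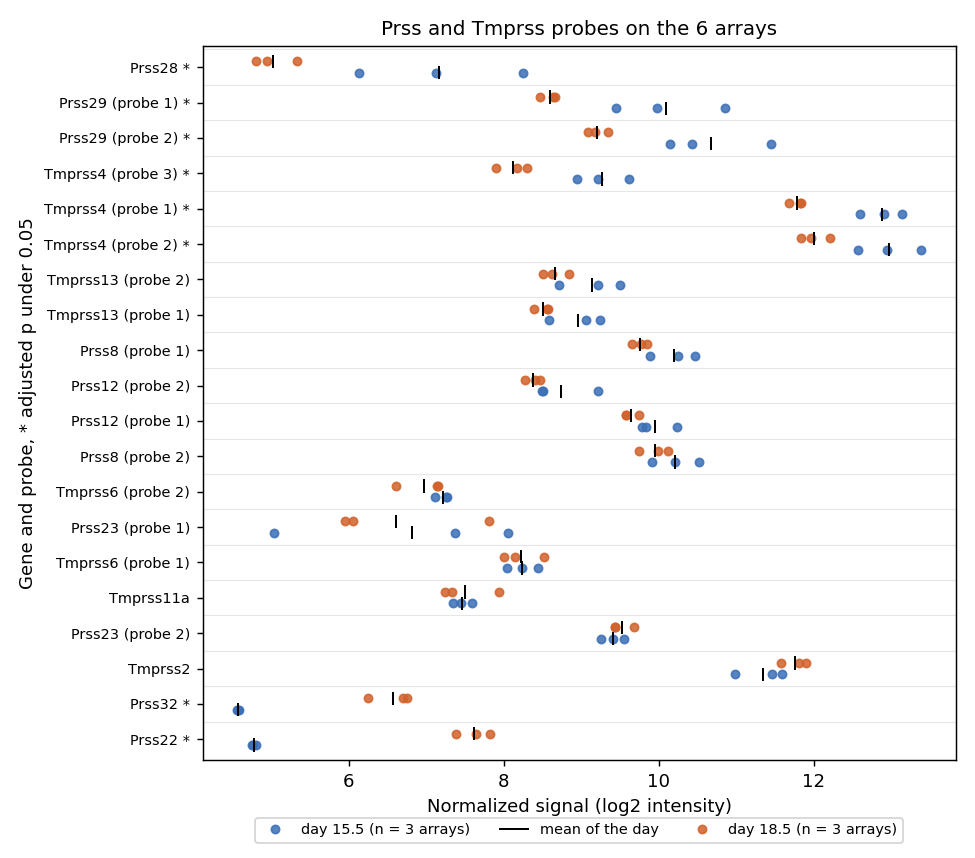
Normalized log2 signal (x axis) of the 20 Prss and Tmprss probes tested, each dot an array, with a bar at the mean of each day (n = 3 arrays) and genes and probes, numbered by probe identifier, ordered by log2 change on the y axis. Prss22 and Prss32 lie below a log2 signal of 5 at day 15.5 only, and the early arrays of Prss28 and Prss29 are spread widely.

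Substrates and receptors of these proteases moved in both directions. Of 31 listed genes, 21 had a tested probe, and 6 were higher, 6 lower and 9 not past the test, with a median log2 change of -0.20. Over all tested probes 11.6% were higher and 13.2% lower, and nothing is read from the counts of this list. Scnn1b and Scnn1g, the beta and gamma subunits of the epithelial sodium channel that Tmprss4 and prostasin act on, were lower. Scnn1b was at 11.51, 11.50 and 11.69 and then at 9.57, 9.16 and 9.68, a 4.28-fold decrease (adjusted p = 2.19e-05). Scnn1g was at 7.12, 7.99 and 7.40 and then at 5.20, 4.97 and 5.18, where no array detected it, at least 4.20-fold lower (adjusted p = 5.14e-05; log2 change -3.12 to -1.44 over the alternatives). For Scnn1b the gap between the days was wider than the spread within either. Scnn1g was tested only through its day 15.5 arrays, and its late values are background. Its gap and adjusted p do not measure the spread of expression at day 18.5. Scnn1a, the alpha subunit, was picked out after its values were seen and had no tested probe. It was detected on no early and 2 late arrays, with mean log2 signals of 5.12 and 5.52. Among genes around the kinins, Mme, the kinin-degrading peptidase neprilysin, fell 2.86-fold (adjusted p = 0.000128). The kinin receptor Bdkrb1 was at 4.74, 4.85 and 4.74, detected on none, and then at 6.05, 5.85 and 6.41, at least 1.57-fold higher (adjusted p = 0.000291). Ace, Kng1 and Bdkrb2, further genes of the kinin system, were picked out after their values were seen. Ace, whose product also degrades kinins, fell 2.32-fold (adjusted p = 0.0034), Kng1, a kininogen gene, rose 1.45-fold (adjusted p = 0.0205), and Bdkrb2, the other kinin receptor gene, was detected on no array. The Kng1 call ended when replicate 2 or 3 was removed from either day (adjusted p between 0.0626 and 0.0735, within a range of 0.00342 to 0.0735). The membrane mucin Muc4, detected on 2 of the 3 early arrays, rose with a log2 change of 2.73 (1.98 to 3.18 over the alternatives, adjusted p = 0.000657) and the desmosomal cadherin Dsg2 rose 2.26-fold (adjusted p = 0.00153). Kng2 and Met did not pass.

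Inhibitors of trypsin-like proteases also moved both ways. Of 37 listed genes 19 had a tested probe, and 6 were higher, 4 lower and 9 not past the test, with a median log2 change of 0.02. The shares of all tested probes were 11.6% higher and 13.2% lower, and nothing is read from these counts either. Serpina3n, a serine protease inhibitor, was at 11.76, 12.01 and 12.19 and then at 11.10, 10.99 and 10.99, a 1.94-fold decrease (adjusted p = 0.00104). Its relative Serpina3g rose 1.72-fold (adjusted p = 0.00191), and the antitrypsin gene Serpina1d rose 3.17-fold (adjusted p = 0.00581). Wfdc2 and Spink8 rose 1.67-fold and 1.5-fold (adjusted p = 0.0091 and 0.00938), and Spink4, undetected at day 15.5, was at least 1.22-fold higher (adjusted p = 0.00237). Spint1, picked out after its values were seen as an inhibitor of membrane-anchored proteases, was at 13.52, 13.40 and 12.92 and then at 12.52, 12.49 and 12.71, a 1.64-fold decrease (adjusted p = 0.0132), a call lost without replicate 2 of day 15.5 (adjusted p = 0.0518, within a range of 0.00171 to 0.0518). Its relative Spint2 and the leukocyte protease inhibitor Slpi did not pass.

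Of 41 listed serine proteases outside the family, 25 had a tested probe, and 6 were higher, 6 lower and 13 not past the test, with a median log2 change of 0.10. Again 11.6% of all tested probes were higher and 13.2% lower, and nothing is read from the counts. Hgfac, which activates hepatocyte growth factor, was at 10.27, 9.79 and 9.58 and then at 12.22, 12.34 and 12.51, a 5.57-fold rise (adjusted p = 2.06e-05). Htra4 rose 3.16-fold (adjusted p = 2.01e-05) and the complement protease gene Cfi 2.85-fold (adjusted p = 0.00017). The coagulation factor F7, detected on 2 of the 3 late arrays, fell with a log2 change of -2.11 (-2.66 to -1.28 over the alternatives, adjusted p = 0.000157), and Masp1, undetected at day 18.5, was at least 1.75-fold lower (adjusted p = 0.0014). The mast cell tryptase gene Tpsb2 rose 2.51-fold (adjusted p = 0.000857). Tpsb2 is itself among the 9 tested mast cell markers, of which 5 were higher, Tpsb2 and the tryptase gene Tpsab1 included, and 1 was lower. The summed signals of that list were 8006 to 10421 at day 15.5 and 10179 to 10599 at day 18.5. Mcpt2 and Ms4a2 were detected on no array. St14, picked out after its values were seen because matriptase works in a chain with prostasin, rose 1.58-fold (adjusted p = 0.0106). Plau and Plat, the plasminogen activator genes, did not pass.

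**Figure D4:**
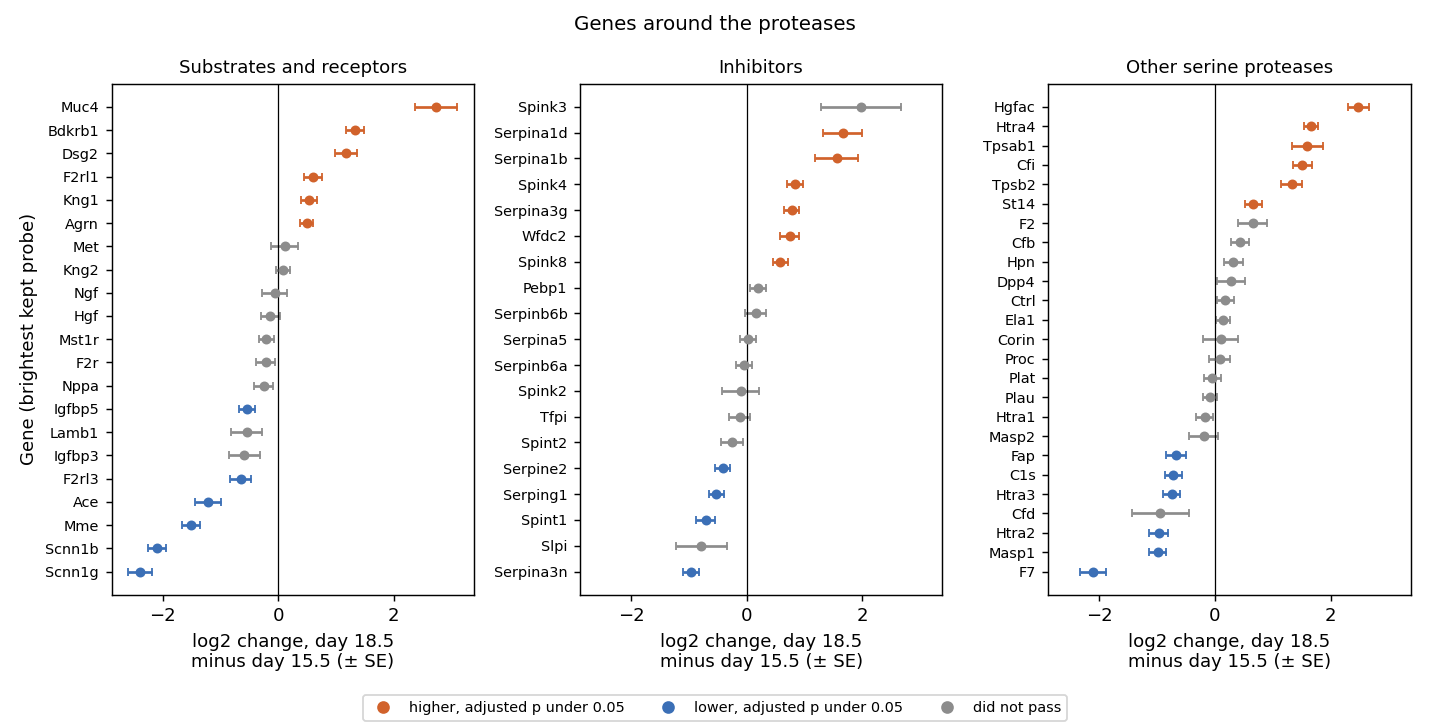
Log2 change from day 15.5 to day 18.5 (x axis, ± SE, n = 3 arrays a day) of the brightest tested probe of each listed gene (y axis), in panels for substrates and receptors, inhibitors and other serine proteases. Scnn1b and Scnn1g stand lowest in the first panel and Hgfac highest in the last, and each panel holds 6 genes called higher.

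Markers of other cell types moved between the days beside these results. Over all tested probes 11.6% were higher and 13.2% lower, and nothing is read from the counts of any marker list. All 8 smooth muscle markers were tested, 2 were lower and none higher, and their summed signal was 106869 to 120105 at day 15.5 and 110304 to 118639 at day 18.5. The brightest Acta2 probe, which stands for the gene there, changed by 0.07 (log2, adjusted p = 0.728), while 3 of its 4 other tested probes were lower (log2 changes of -0.42 to -0.71). Decidual and stromal markers had 3 higher and 3 lower of 7 tested, with Bmp2 detected on no array. Trophoblast markers had 2 higher of 3 tested, with sums of 228 to 347 and then 3975 to 12216, and Tpbpa, Gcm1, Syna, Hand1 and Ascl2 detected on no array. Skeletal muscle markers had 2 lower of 5 tested, with sums of 8603 to 10940 and then 1431 to 2309, and Myh1, Myh2 and Myh4 undetected. Exocrine pancreas, whose trypsins are also named Prss, had 9 of 12 markers detected on no array and 2 lower of 3 tested. Of neutrophil markers 1 of 4 tested was higher, and of mesothelium and fat markers none of 3 was called. What part these cell types had in the proteases' changes was not tested.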

How the data were processed

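The authors deposited, per the file headers, an unnormalized table with a mean bead intensity, a detection p-value and bead numbers for each of 45281 probes and 6 arrays, which was used here. They also deposited normalized intensities, used as an alternative. In the deposited comparison table the block of ratios and gene names does not belong to the probes on the same lines, 1394 of which hold no ratio, so members were found by the symbol column beside the probe and the block was not used. RNA was extracted from uterus with Trizol and columns and labelled with Cy3, per the labels' protocols.

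With neqc of limma 3.58.1 (R 4.3.3), intensities were corrected for a background estimated from the detection p-values, given an offset of 16, quantile-normalized and log2-transformed. Probes with a detection p under 0.05 on at least 3 of 6 arrays were kept, and the days were compared with lmFit and eBayes, two-sided, with Benjamini-Hochberg adjustment over 20701 probes and a threshold of 0.05. The fit was tested on simulated data. Each probe was fitted on its own, and 24 of the 60 genes had several probes. Where no array of a day detected a probe, the fold is a bound, against the higher of the probe's own signal and the lowest signal of a detected probe on each array. Such a probe was tested only through the day where it was high, and its adjusted p rests on background values on the other day. For listed genes outside the family the brightest kept probe stands for the gene. Marker sums are of linear normalized signals over all listed genes with a probe, tested or not.

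Alternatives were no background correction, median scaling, an offset of 50, the normalized values of the authors (floor 16), a detection limit of 0.01 required on every array, testing all probes, 1 probe per gene, a trended and robust variance, the replicate number as a block, and leaving out each array. The members and the lists of other genes and markers were chosen with earlier results of these data known. Every member gene with a tested probe could be named. From each list of other proteases, inhibitors and substrates, up to 6 genes with the smallest adjusted p past the threshold and up to 2 that did not pass were named, and of each marker list up to 3 in list order; others were named where a count called for it or are said to have been picked afterwards. Gene names follow RefSeq (GRCm38.p6), 26889 probes by accession, 5429 by symbol and 3945 by synonym, and 9018 kept the file's name. Promoter windows are RefSeq's; identity is the share of identical columns in a global alignment. Protein sequences were not used here.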

Additional observations from a re-analysis of the deposited data

How the results depend on the processing

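Of the 19 member probes called, 18 kept their direction and their side of the threshold under every alternative in which they were tested; the exception was the second Klk1b27 probe, whose values are given above. With a detection p under 0.01 required on all 6 arrays, 31 member probes were tested and 1 was higher in place of 3 and 13 lower in place of 16. Prss22, Prss32, Prss28 and Klk1b11 (ILMN_2632912), each undetected on 1 of the days, and Klk15, weak at day 18.5, did not meet that limit and were not tested there. The probes undetected on 1 of the days met the main limit only through the day where they were high. The other settings gave 2 to 3 member probes higher and 12 to 20 lower, and leaving out 1 array gave 2 to 3 and 16 to 19. Over all probes, leaving out 1 array gave 1742 to 2221 higher and 2027 to 2495 lower.

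The sign turned only for probes that did not pass. With median scaling the log2 change was -0.011 for Prss23 (ILMN_1246127) and -0.13 for Tmprss11a. With 1 array left out it ran from -0.25 to 0.68 for Klk1b1 (ILMN_2989749), from -0.059 to 0.00023 for Klk8, from -1.11 to 0.40 for Prss23 (ILMN_1233257), from -0.17 to 0.17 for Tmprss11a and from -0.17 to 0.096 for Tmprss6 (ILMN_1227763); the cause was not tested.

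The correlations of same-numbered arrays' deviations from their day means were -0.16, 0.14 and -0.07, so no shared deviation was seen. Whether the numbers pair the arrays is not given. With a replicate block 2 member probes were higher and 16 lower, against 2097 and 2424 of all probes, and no call other than that of Klk1b27 changed. Signals near background limit the folds of Klk15, Prss22, Prss32, Prss28, Klk1b1 and Klk1b11 (ILMN_2632912).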
